A study of Mus musculus with 8 samples.

Results

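The genes described here are 48 members of the MYC network and of the nucleolar machinery that makes ribosomes: Myc, 3 genes of its partner network and 44 genes of ribosomal RNA synthesis and ribosome assembly. They were chosen by name, with no measured value in the rule, but with earlier results of these data known. They were matched by symbol in 2 tables of read counts, one of 17642 genes for CD8 T cells and one of 18389 genes for group 2 innate lymphoid cells (ILC2s, tissue lymphocytes known for making type 2 cytokines and lacking T cell receptors). All 48 were in both tables, and all 48 passed the filter on low counts in every comparison.

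Bulk RNA was sequenced from 4 groups of wild-type primary mouse cells, each with 2 libraries. They were splenic CD8 T cells co-cultured with ILC2s, splenic CD8 T cells cultured alone, lung ILC2s co-cultured with CD8 T cells and lung ILC2s cultured alone. The labels call the cells cultured alone untreated and name no drug, cytokine or antigen. Co-culture lasted 3 days at 5 CD8 T cells to 1 ILC2. A time in culture for the cells cultured alone was not found in the labels. From each group 1000000 cells were sorted by flow cytometry. The labels do not tell whether the 2 libraries of a group are from different animals or cultures. All p-values therefore rest on library-to-library spread that may be technical.

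MYC is a transcription factor that binds DNA as a pair with MAX at a short motif called the E-box and raises the expression of genes for growth, ribosome production among them. MXD proteins also pair with MAX, bind the same motif and repress. In the nucleolus, RNA polymerase I makes a long precursor RNA, small nucleolar ribonucleoproteins (snoRNPs) modify it, and separate sets of assembly factors process it into the small and large ribosomal subunits. T cells that are activated through their receptor are known to raise Myc and to enlarge their nucleoli.

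Library totals ran from 48072595 to 67076905 reads. Levels are given as CPM, the reads of a gene per 1000000 counts of its library, and are not corrected for gene length, so they are compared between libraries and not between genes. The CD8 T cell marker list (8 of 8 genes in the table) summed to 6448 to 6545 CPM in co-cultured CD8 T cells and 4732 to 4866 CPM in CD8 T cells alone. The ILC2 list (11 of 11 genes in the table) summed to 8168 to 8449 CPM in co-cultured ILC2s and 3444 to 3477 CPM in ILC2s alone. The libraries labelled ILC2 alone also held markers of other cells. Stromal genes (9 of 11 in the table) summed to 113.7 to 119.5 CPM in co-cultured ILC2s and 5901 to 6425 CPM in ILC2s alone, macrophage genes (5 of 11 in the table) to 17.0 to 21.1 and 313.3 to 319.1 CPM, and CD8 T cell genes (8 of 8) to 158.2 to 191.6 and 1481 to 1533 CPM. Lum was the exception among the stromal genes. It made up most of the co-cultured sum and rose, with 105.2 and 109.9 CPM in co-cultured ILC2s and 60.95 and 71.7 CPM in ILC2s alone (log2 change 0.91). Among the defining markers in co-cultured ILC2s and ILC2s alone, Col1a1 ranged from 0.312 to 0.640 and from 1068 to 1226 CPM, and Lyz2 from 0.248 to 1.08 and from 125.1 to 128.5 CPM. Both ILC2 libraries cultured alone carried these markers, so no comparison of ILC2s without them was possible. The mast cell gene Cpa3 and the epithelial gene Krt8 were also lower in co-cultured ILC2s (18.6 to 19.6 and 0.250 to 0.433 CPM) than in ILC2s alone (114.0 to 140.7 and 87.8 to 92.4 CPM). Not all markers of other cells were lower. Of 5 epithelial and endothelial genes tested in ILC2s, 4 fell and 1 rose (Pecam1, log2 change 1.19). Of 5 dendritic cell genes there, 2 fell, 1 rose (Xcr1, 1.40) and 2 did not pass. Of 5 B cell genes, 1 fell, 1 rose and 3 did not pass. Markers of other cells moved in the CD8 comparison too. In co-cultured CD8 T cells and CD8 T cells alone, Cpa3 ranged from 0.0151 to 0.0298 and from 8.65 to 11.4 CPM, Lyz2 from 0.104 to 0.181 and from 2.17 to 3.74 CPM, and the dendritic cell gene Batf3 from 2.34 to 2.89 and from 25.02 to 33.1 CPM. Cd4 went the other way, from 9.35 to 9.76 CPM co-cultured and from 1.01 to 1.21 CPM alone. Other genes of these lists did not all move alike in CD8 T cells. Of 4 macrophage genes tested, 2 fell and 1 rose. The rise was that of Cd68 (29.4 to 31.0 CPM co-cultured, 13.9 to 14.0 CPM alone), and the macrophage sum was 30.9 to 32.6 and 17.8 to 19.3 CPM. Of 4 dendritic cell genes 2 fell and 2 did not pass. Of 4 CD4 T cell genes 1 rose, 1 fell (Cd40lg) and 2 did not pass. Of 3 stromal genes tested 2 rose and 1 fell, and of 3 NK cell genes 2 rose and 1 did not pass. Of 3 epithelial and endothelial genes 2 rose and 1 fell. Pecam1 was among the rises (129.1 to 132.6 CPM co-cultured, 36.0 to 38.7 CPM alone). The part of these markers in the results below was not tested. In bulk RNA, fewer cells of a type and less RNA per cell cannot be told apart.

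The 44 nucleolar genes were lower as a group after co-culture in both cell types. Together they took 0.416% and 0.426% of all counts in co-cultured CD8 T cells, against 0.838% and 0.737% in CD8 T cells alone. In ILC2s they took 0.206% and 0.198% of counts in the co-cultured libraries, against 0.526% and 0.460% in the libraries alone. Differences were tested per gene over the whole table with edgeR's quasi-likelihood test, called at a Benjamini-Hochberg adjusted p under 0.05, and given as log2 changes of co-cultured over alone. In CD8 T cells 42 of the 44 nucleolar genes fell, none rose and 2 did not pass, where 30.7% of the 15948 genes tested fell. Calls in either direction took in 45 of the 48 members in CD8 T cells and 43 in ILC2s, and 60.9% and 66.3% of all genes. In ILC2s 40 of the 44 fell, none rose and 4 did not pass, where 34.4% of 16739 genes fell. Falls of at least 2-fold were called for 22 of 44 in CD8 T cells (10.7% of all genes tested) and 34 of 44 in ILC2s (22.7% of all genes tested).

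The median log2 change of the 44 genes was -1.004 in CD8 T cells, where that of all genes tested was -0.01, and -1.84 in ILC2s, where that of all genes was also -0.01. All 44 lay below the median of all genes in CD8 T cells and 43 of 44 did so in ILC2s. The exception was Npm1. Scaling the ILC2 libraries so that the median ILC2 marker does not change lowers every gene by about the same amount. The markers were Gata3, Il1rl1, Il5, Il13, Areg, Rora, Klrg1, Il17rb, Hes1, Calca and Arg1. They include cytokine genes (Il5 and Il13), and Rora rose in CD8 T cells too (log2 change 1.57). The scaling takes their level per ILC2 as unchanged, which was not tested. The scaling put the median of all genes at -1.55 and that of the 44 genes at -3.38, so signs on that scale are read against -1.55. By role, the medians in CD8 T cells were lowest for the box H/ACA snoRNP genes (-1.49) and the box C/D snoRNP genes (-1.36). They were -1.09 for the nucleolar scaffold genes, -0.97 for large subunit assembly, -0.69 for RNA polymerase I and -0.68 for small subunit assembly. In ILC2s the order again began with box H/ACA (-2.43) and box C/D (-2.05), followed by large subunit assembly (-1.88), small subunit assembly (-1.60), RNA polymerase I (-1.08) and the scaffold (-0.74).

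**Figure D1:**
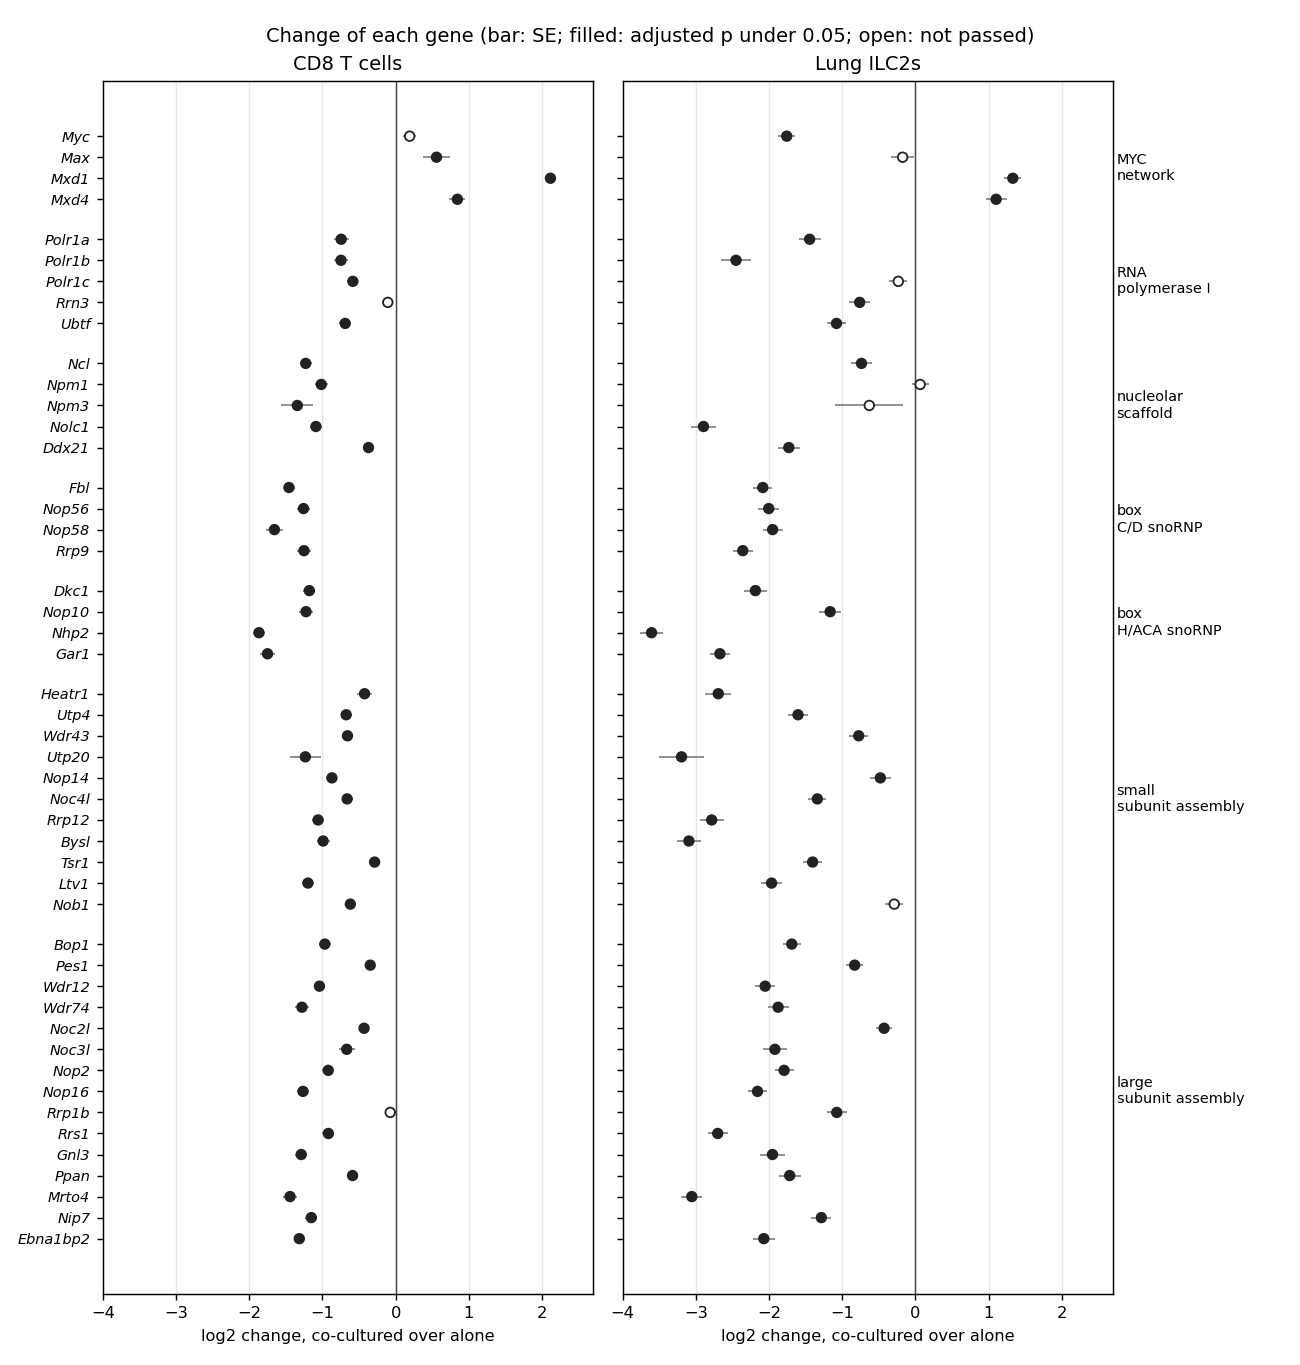
Log2 change of co-cultured over alone (horizontal axis) for each of the 48 genes, grouped by role down the page, in CD8 T cells (left) and ILC2s (right). Points are edgeR estimates with their SE, filled where the adjusted p was under 0.05. Nucleolar genes lie left of 0 in both panels except Npm1 in ILC2s, and Mxd1 and Mxd4 lie right of 0 in both, although in ILC2s they lay at -0.21 and -0.44 when scaled to ILC2 markers (all genes, -1.55).

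The replicates of a group differed by less than these falls for most nucleolar genes. The median absolute log2 difference between the 2 libraries was 0.08 in co-cultured CD8 T cells and 0.18 in CD8 T cells alone, and 0.13 in co-cultured ILC2s and 0.15 in ILC2s alone. The CD8 libraries cultured alone were not level with each other, since 42 of the 44 genes were higher in replicate 1. Without that library the median log2 change of all 48 members in CD8 T cells was -0.85, against -0.94 with it, and 42 members still fell.

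**Figure D2:**
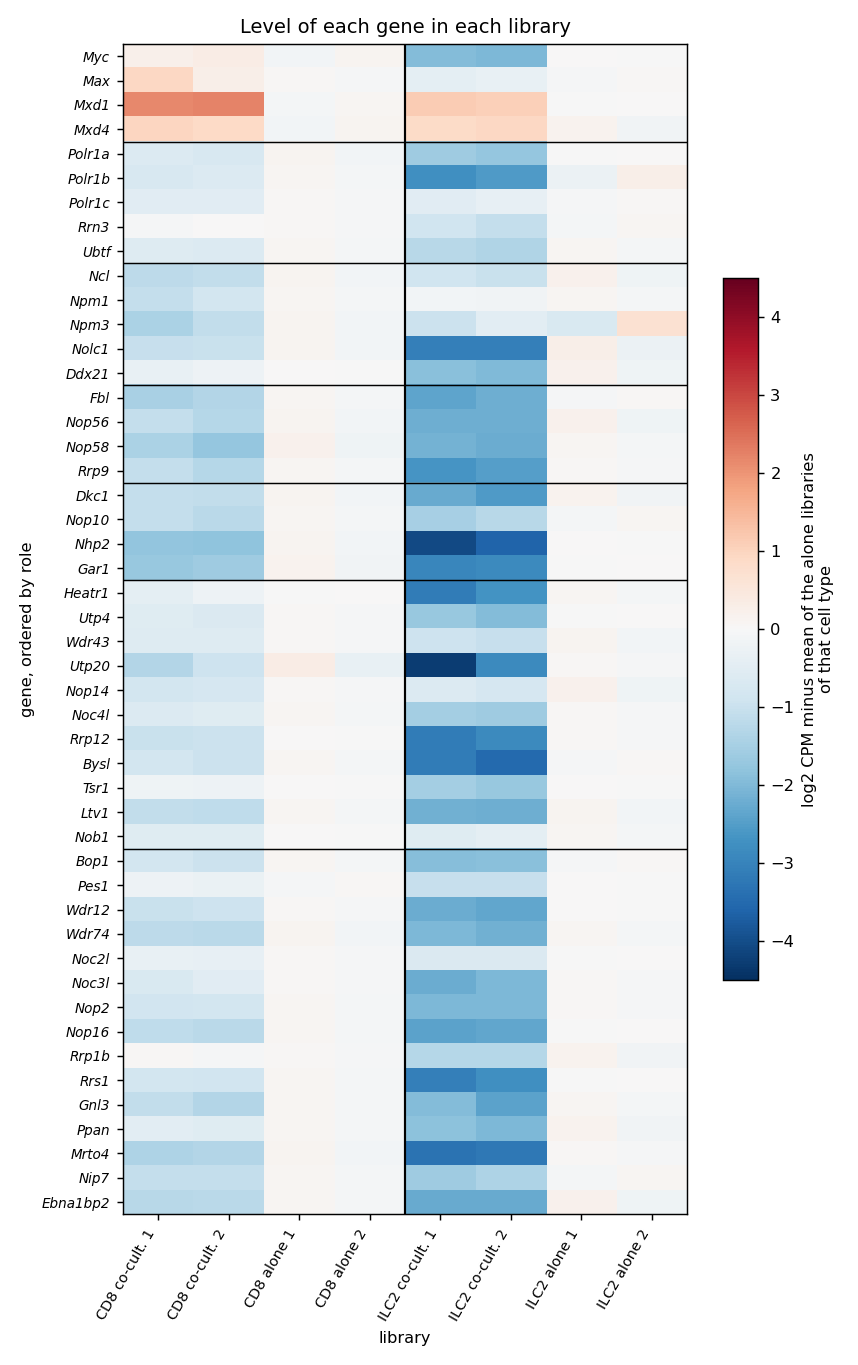
Level of each gene (rows, ordered by role) in each of the 8 libraries (columns), as log2 CPM minus the mean of the alone libraries of the same cell type. Blue is lower and red is higher. The 2 co-cultured columns of each cell type are mostly blue below the MYC network rows, and the first CD8 library cultured alone is faintly red beside the second.

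The MYC network itself did not move as one. Myc, on chromosome 15 at 61985341 to 61990361 of GRCm38, stood at 789.0 and 834.3 CPM in co-cultured CD8 T cells and at 608.0 and 736.0 CPM in CD8 T cells alone. Both co-cultured libraries were above both alone, but the distance between the nearest libraries was smaller than that between the replicates cultured alone. The log2 change was 0.19 (SE 0.0904) and did not pass (adjusted p = 0.084). The value hung on the libraries cultured alone. Without CD8 alone replicate 1 it was 0.0511 (adjusted p = 0.57), and without CD8 alone replicate 2 it was 0.35 and passed (adjusted p = 0.00017). With scaling by library totals only it was 0.27 and passed (adjusted p = 0.016). In ILC2s Myc was at 94.1 and 90.1 CPM in the co-cultured libraries and at 367.7 and 356.2 CPM in those alone. These groups lay far apart, and Myc fell by 1.76 on the log2 scale (SE 0.119, adjusted p = 1.7e-07).

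Mxd1, which encodes a MAX partner that represses E-box genes, rose in both cell types. It was at 162.6 and 167.4 CPM in co-cultured CD8 T cells and at 34.2 and 37.8 CPM in CD8 T cells alone, a log2 change of 2.12 (SE 0.0811, adjusted p = 1.1e-09). ILC2s had 954.0 and 898.4 CPM in the co-cultured libraries and 419.0 and 435.8 CPM in those alone, a log2 change of 1.33 (SE 0.116, adjusted p = 1.4e-06). When scaled to ILC2 markers Mxd1 was at -0.21 (adjusted p = 0.11), with the median of all genes at -1.55. The replicates of each group were close together beside the distance between groups. Mxd1 lies on chromosome 6 at 86647044 to 86669234.

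Mxd4, of the same repressor family, was at 27.9 and 26.9 CPM in co-cultured CD8 T cells and at 13.3 and 15.5 CPM in those alone (log2 change 0.84, SE 0.109). In ILC2s it was at 32.4 and 34.2 CPM co-cultured and at 20.0 and 16.0 CPM alone (log2 change 1.10, SE 0.144, and -0.44 when scaled to ILC2 markers). The co-cultured libraries were the higher ones in each cell type. Max, the shared partner, had 18.6 and 11.5 CPM in co-cultured CD8 T cells and 10.04 and 9.32 CPM in those alone (log2 change 0.56, SE 0.182, adjusted p = 0.018). Most of that difference lay in 1 library, and without CD8 co-cultured replicate 1 the log2 change was 0.18 (adjusted p = 0.35). In ILC2s Max was at 7.80 and 8.24 CPM co-cultured and at 10.2 and 10.8 CPM alone (log2 change -0.17, SE 0.158, adjusted p = 0.35). Among all 48 members, 3 rose in CD8 T cells (30.2% of all genes rose) and 2 rose in ILC2s (31.8% of all genes rose), and each of these was a MAX or MXD gene. When scaled to ILC2 markers, where 479 of 16739 genes rose and 13421 fell, no member rose in ILC2s.

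**Figure D3:**
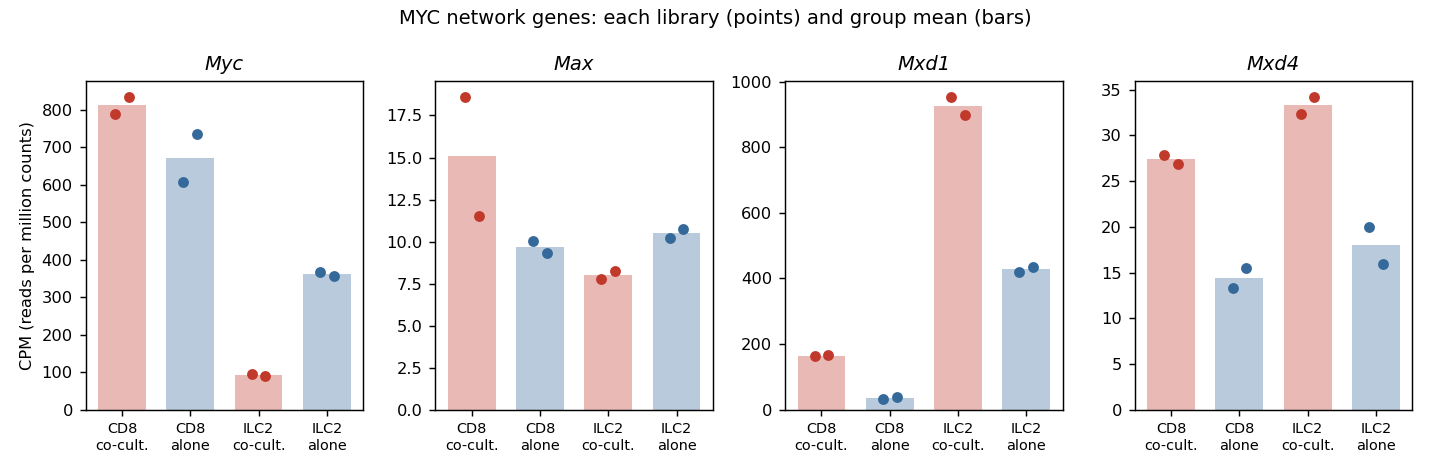
CPM of Myc, Max, Mxd1 and Mxd4 in each library (points) with the group mean (bars), for CD8 T cells and ILC2s, co-cultured (red) and alone (blue). Myc is at 90.1 to 94.1 CPM in co-cultured ILC2s and at 789.0 to 834.3 CPM in co-cultured CD8 T cells, while Mxd1 has more CPM co-cultured than alone in both (-0.21 on the log2 scale in ILC2s when scaled to ILC2 markers).

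Genes of RNA polymerase I, the enzyme of ribosomal RNA synthesis, fell in 4 of 5 cases in each cell type. Polr1b, which encodes the second-largest subunit, had 20.9 and 22.6 CPM in co-cultured CD8 T cells and 36.5 and 32.7 CPM in those alone (log2 change -0.75, SE 0.0949, adjusted p = 1.8e-05). In ILC2s it had 3.34 and 3.91 CPM co-cultured and 19.0 and 27.0 CPM alone (log2 change -2.45, SE 0.202, adjusted p = 8.3e-07). In neither cell type did the groups overlap. Polr1a, the gene of the largest subunit, changed by -0.74 (SE 0.103) in CD8 T cells and by -1.45 (SE 0.151) in ILC2s on the log2 scale. Ubtf, whose product UBF binds the ribosomal RNA genes, changed by -0.69 (SE 0.08) and by -1.08 (SE 0.128).

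The others of this role differed between the cell types in which of them passed. Rrn3 encodes the factor that brings the polymerase to its promoter. It was at 56.2 and 58.5 CPM in co-cultured CD8 T cells and at 60.02 and 56.9 CPM in those alone, which overlap (log2 change -0.11, SE 0.0766, adjusted p = 0.24). In ILC2s it was at 30.3 and 26.8 CPM co-cultured and at 53.1 and 59.3 CPM alone (log2 change -0.76, SE 0.139, adjusted p = 0.00049). Polr1c, a subunit shared with RNA polymerase III, fell in CD8 T cells (log2 change -0.58, SE 0.0763) and did not pass in ILC2s (-0.23, SE 0.125, adjusted p = 0.12).

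All 5 nucleolar scaffold genes fell in CD8 T cells and 3 of 5 fell in ILC2s. Ncl encodes nucleolin, an abundant RNA-binding protein of the nucleolus. It was at 679.1 and 714.1 CPM in co-cultured CD8 T cells and at 1685 and 1407 CPM in those alone (log2 change -1.23, SE 0.0843, adjusted p = 9.2e-08), and at 520.3 and 479.7 CPM in co-cultured ILC2s and 1100.3 and 837.8 CPM in those alone (-0.74, SE 0.141, adjusted p = 0.00067). Co-cultured libraries were lower in each, although the ILC2 replicates cultured alone were far apart. Npm1 encodes nucleophosmin, a histone and ribosome chaperone. It fell in CD8 T cells, with 655.9 and 781.0 CPM co-cultured and 1466 and 1286 CPM alone (-1.02, SE 0.0914, adjusted p = 8.7e-07). In ILC2s it had 504.2 and 486.7 CPM co-cultured and 577.1 and 523.4 CPM alone, a log2 change of 0.06 (SE 0.115, adjusted p = 0.64) that lay at -0.15 with scaling by library totals only and at -1.48 when scaled to ILC2 markers, so its direction is not settled there. Npm1 shares stretches of at least 300 bases at 95% identity or more with transcripts of 4 other genes, and how such reads were counted is not given in the sources used here. The same holds for Npm3, Ddx21, Fbl, Nop56, Pes1, Wdr12 and Mrto4, so the counts of these 8 genes are uncertain. Exons of 14 members overlap a gene on the other strand (Nhp2 and Dkc1 among them), and whether strand was used in counting is not given either.

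Nolc1, a chaperone of snoRNPs, was the scaffold gene with the largest fall in ILC2s. Both co-cultured ILC2 libraries had 23.6 CPM, against 239.2 and 169.0 CPM in ILC2s alone (log2 change -2.90, SE 0.167, adjusted p = 4.6e-08). CD8 T cells had 118.7 and 121.7 CPM co-cultured and 265.6 and 218.9 CPM alone (-1.09, SE 0.0864). Ddx21, an RNA helicase that acts in ribosomal RNA transcription and processing, changed by -0.37 (SE 0.0748) in CD8 T cells and by -1.73 (SE 0.151) in ILC2s. Npm3, a relative of Npm1, had few reads, with as few as 33 in an ILC2 library. It had 1.31 and 1.61 CPM in co-cultured CD8 T cells and 3.84 and 3.21 CPM in those alone (-1.34, SE 0.219, adjusted p = 0.00015), and 0.681 and 0.957 CPM in co-cultured ILC2s and 0.823 and 2.11 CPM in those alone, where the groups overlap (-0.63, SE 0.463, adjusted p = 0.25).

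Box C/D snoRNPs methylate ribosomal RNA, and all 4 of their genes listed here fell in both cell types. Fbl encodes fibrillarin, the methyltransferase. It had 80.2 and 89.0 CPM in co-cultured CD8 T cells and 233.8 and 206.2 CPM in those alone (log2 change -1.46, SE 0.0834), and 18.4 and 20.9 CPM in co-cultured ILC2s and 93.6 and 99.9 CPM in those alone (-2.09, SE 0.129). Replicates were close beside the distance between groups. Nop58, a core protein of the particle, had the largest fall of this role in CD8 T cells, with 62.5 and 50.2 CPM co-cultured and 190.9 and 145.5 CPM alone (-1.66, SE 0.122, adjusted p = 1.6e-07). Its partner Nop56 changed by -1.26 (SE 0.0901) in CD8 T cells and by -2.00 (SE 0.142) in ILC2s. Rrp9, a protein of the U3 particle that starts small subunit processing, had the largest fall of this role in ILC2s, with 8.13 and 9.11 CPM co-cultured and 52.9 and 49.6 CPM alone (-2.36, SE 0.137, adjusted p = 4.7e-08).

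Box H/ACA snoRNPs convert uridine to pseudouridine and their proteins also sit in telomerase. All 4 fell in both cell types, and the role held the member with the largest fall of all 48 in each. That was Nhp2, on chromosome 11 at 51619773 to 51623718. It had 33.3 and 32.1 CPM in co-cultured CD8 T cells and 121.3 and 104.6 CPM in those alone, which is 3.65-fold lower (log2 change -1.87, SE 0.0855, adjusted p = 3.9e-09). In ILC2s it had 3.63 and 4.95 CPM co-cultured and 60.9 and 60.1 CPM alone, which is 12.2-fold lower (-3.61, SE 0.162, adjusted p = 5.6e-09). The groups were apart by many times the distance between replicates in both. Gar1 followed at 3.37-fold lower in CD8 T cells and 6.37-fold lower in ILC2s. Dkc1, the gene of dyskerin, which is the pseudouridine synthase itself, was 2.27-fold and 4.55-fold lower, and Nop10 was 2.34-fold and 2.24-fold lower.

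Of the 11 genes of small subunit assembly, 11 fell in CD8 T cells and 10 in ILC2s. Utp20, a large protein of the early processing complex, fell most in both. It had 3.93 and 5.11 CPM in co-cultured CD8 T cells and 12.5 and 7.73 CPM in those alone (log2 change -1.23, SE 0.211, adjusted p = 0.00022). ILC2s had 0.557 and 1.46 CPM co-cultured and 10.998 and 10.3 CPM alone (-3.20, SE 0.313, adjusted p = 3.4e-06). These groups did not overlap, though replicates of this little-read gene were uneven.

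Bysl, Rrp12 and Heatr1 also fell by unequal amounts in the cell types. Bysl encodes bystin, needed for small subunit maturation, and was 1.99-fold lower in CD8 T cells and 8.55-fold lower in ILC2s, where it had 6.44 and 5.01 CPM co-cultured and 55.3 and 58.6 CPM alone. Rrp12, known in yeast for export of both subunits, was 2.09-fold and 6.89-fold lower. Heatr1, an early processing factor that also acts in polymerase I transcription, had 23.7 and 27.4 CPM in co-cultured CD8 T cells and 32.1 and 32.6 CPM in those alone (1.34-fold lower), and 2.85 and 3.89 CPM in co-cultured ILC2s and 26.9 and 23.6 CPM in those alone (6.48-fold lower). In each comparison the co-cultured libraries were below those alone.

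The remaining genes of this role gave a mixed picture. Tsr1, a factor of late small subunit maturation, was 1.22-fold lower in CD8 T cells and 2.65-fold lower in ILC2s. Nob1, the enzyme that makes the final cut of small subunit RNA, had 79.2 and 78.8 CPM in co-cultured CD8 T cells and 114.9 and 114.7 CPM in those alone (log2 change -0.62, SE 0.0702). In ILC2s it had 45.7 and 49.3 CPM co-cultured and 71.8 and 62.8 CPM alone (-0.29, SE 0.124, adjusted p = 0.058), which did not pass although the groups did not overlap. Nop14 changed by -0.87 (SE 0.0753) in CD8 T cells and by -0.48 (SE 0.145, adjusted p = 0.012) in ILC2s, where it did not pass without ILC2 alone replicate 1 (-0.30, adjusted p = 0.16). Log2 changes of Utp4, Wdr43, Noc4l and Ltv1 ran from -1.20 to -0.66 in CD8 T cells and from -1.97 to -0.77 in ILC2s.

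Of the 15 genes of large subunit assembly, 14 fell in CD8 T cells and 15 in ILC2s. Mrto4, a factor that holds the place of a ribosomal stalk protein on the maturing subunit, fell most in both. It had 33.4 and 34.9 CPM in co-cultured CD8 T cells and 95.5 and 80.3 CPM in those alone (log2 change -1.44, SE 0.0904, adjusted p = 4.8e-08), and 4.97 and 5.45 CPM in co-cultured ILC2s and 52.5 and 48.0 CPM in those alone (-3.06, SE 0.145, adjusted p = 9.3e-09). The replicates of each group were close together. Rrs1, of the step that brings in the 5S RNA, was 1.89-fold lower in CD8 T cells and 6.51-fold lower in ILC2s. Gnl3, which encodes the nucleolar GTPase nucleostemin, was 2.45-fold and 3.87-fold lower.

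The proteins of Bop1, Pes1 and Wdr12 form one complex in large subunit processing, and the 3 genes fell by unequal amounts. In CD8 T cells the log2 changes were -0.97 (SE 0.0798) for Bop1, -0.35 (SE 0.0709) for Pes1 and -1.04 (SE 0.078) for Wdr12. In ILC2s they were -1.69 (SE 0.124) for Bop1, -0.83 (SE 0.117) for Pes1 and -2.05 (SE 0.139) for Wdr12. Pes1 changed least of these 3 in both. Rrp1b, a nucleolar protein that interacts with chromatin, was the one gene of this role that did not pass in CD8 T cells. It had 98.0 and 92.6 CPM co-cultured and 97.5 and 92.4 CPM alone there (-0.07, SE 0.0723, adjusted p = 0.39), and 26.1 and 25.6 CPM in co-cultured ILC2s and 69.6 and 57.0 CPM in those alone (-1.08, SE 0.138, adjusted p = 3.1e-05). The CD8 libraries overlap and the ILC2 libraries do not. Noc2l fell by 0.43 on the log2 scale in both cell types (SE 0.0675 in CD8 T cells and 0.115 in ILC2s). Changes of Wdr74, Noc3l, Nop2, Nop16, Ppan, Nip7 and Ebna1bp2 ran from -1.32 to -0.59 in CD8 T cells and from -2.16 to -1.29 in ILC2s.

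**Figure D4:**
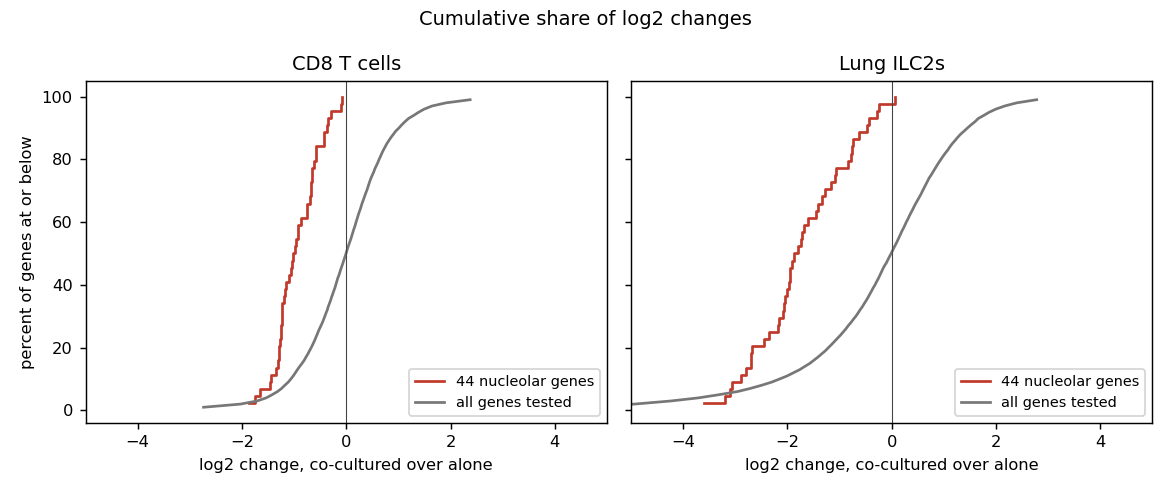
Cumulative share of genes (vertical axis, percent) at or below each log2 change of co-cultured over alone (horizontal axis), for the 44 nucleolar genes (red) and all genes tested (grey), in CD8 T cells (left) and ILC2s (right). The red curve lies left of the grey one except at its lowest end, with medians of -1.004 and -1.84 against -0.01 and -0.01.

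The difference between the cell types in their response was read from an interaction term fitted to the 8 libraries for 15532 genes, as the CD8 change minus the ILC2 change on the log2 scale. Of the 48 members 37 passed (53.6% of all genes did). Of the 44 nucleolar genes, 33 had a CD8 change above the ILC2 change, where 32.6% of all genes did, and 1 had it below, where 21% did. The other 10 did not pass. The median difference was 0.92 over all 48 members and 0.12 over all genes tested, a shift of the whole scale that was -0.00 with edgeR's RLE factors, where the members' median was 0.80. The widest differences were those of Heatr1 (2.43, SE 0.199, adjusted p = 4.9e-08) and Bysl (2.26, SE 0.187, adjusted p = 5.4e-08), both of small subunit assembly. Npm1 was the exception in the other direction (-0.92, SE 0.146, adjusted p = 6.2e-05). When scaled to ILC2 markers it was 0.42, with the median of all genes at 1.46. For Myc the difference was 2.11 (SE 0.147, adjusted p = 6.9e-09), and for Mxd1 it was 0.94 (SE 0.135, adjusted p = 2.3e-05). Mxd4 did not pass (-0.10, SE 0.181, adjusted p = 0.66). The stromal, macrophage and T cell markers of the ILC2 libraries alone move with this contrast, and their part in it was not tested.

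**Figure D5:**
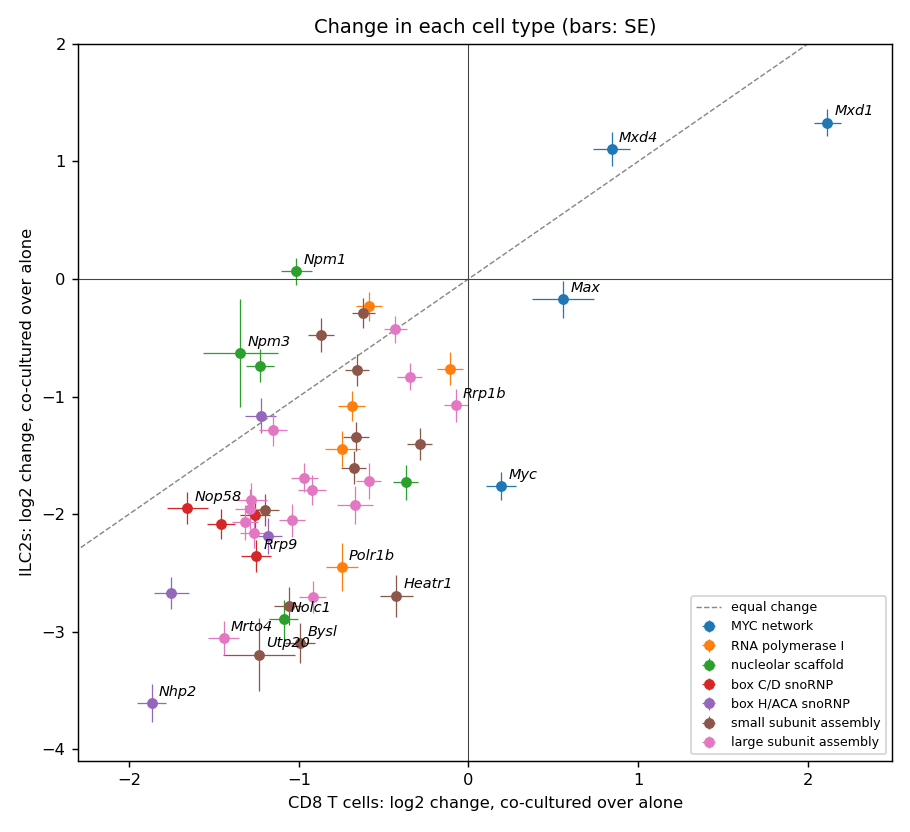
Log2 change of co-cultured over alone in CD8 T cells (horizontal axis) and in ILC2s (vertical axis) for each of the 48 genes, coloured by role, with SE bars and a dashed line of equal change. Of the 44 nucleolar genes 36 lie below the line, Npm1 is among the others, and Myc stands at 0.19 in CD8 T cells and -1.76 in ILC2s.

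All members with a promoter entry were read for the E-box, the motif bound by MYC, MAX and MXD pairs, in promoters taken from RefSeq on GRCm38.p6. A promoter here is the stretch from 250 bases before to 50 bases after an annotated gene start, and 42 of the 48 members had an entry. Those without one were Bop1, Fbl, Myc, Npm1, Rrp12 and Rrs1. The motif CACGTG, which reads the same on both strands, was in 10 of the 42 members' promoters (23.8%, exact Clopper-Pearson 95% interval 12.1% to 39.5%), and in 8.09% of 27025 genes with a promoter of the same length. The share hung on the window. With only the 250 bases before the start, 3 of 42 members held it (7.14%), beside 6.86% of all genes. The motif of Max begins before the start and runs past it, so Max was not among these 3. For Max and Wdr43 the start used lies inside the gene's span (chr12:76937269-76962323 and chr17:71616178-71659031). Their positions below are counted from that inner start. The interval covers counting error only. The 27025 genes were not limited to those with read counts here, and base content was not matched, so the shares come from unlike sets of promoters. A second motif, CACGCG or CGCGTG on the other strand, was searched after seeing the data and was in 12 of 42 members' promoters (28.6%) and 10.49% of all. In the 250 bases before the start it was in 6 of 42 (14.3%) and 8.65% of all. The following 30-base stretches (25 bases for Utp20, whose motif lies near the end of the window) show each E-box in capitals in its surroundings, 5′ to 3′ along the gene's strand.
Max, 3 bases before the start, chr12:76962234-76962263, minus strand: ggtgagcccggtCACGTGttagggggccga
Mxd4, 219 bases before the start, chr5:34187912-34187941, minus strand: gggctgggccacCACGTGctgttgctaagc
Nop2, 60 bases before the start, chr6:125131811-125131840, plus strand: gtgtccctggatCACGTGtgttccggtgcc
Rrn3, 215 bases before the start, chr16:13780472-13780501, plus strand: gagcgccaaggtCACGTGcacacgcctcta
Rrn3, 48 bases before the start, chr16:13780639-13780668, plus strand: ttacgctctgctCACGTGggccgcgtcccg
Pes1, from base 3 of the transcript, chr11:3963965-3963994, plus strand: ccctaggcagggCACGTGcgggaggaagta
Utp4, from base 16 of the transcript, chr8:106893643-106893672, plus strand: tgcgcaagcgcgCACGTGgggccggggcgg
Wdr43, from base 18 of the transcript, chr17:71616220-71616249, plus strand: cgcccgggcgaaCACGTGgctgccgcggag
Tsr1, from base 25 of the transcript, chr11:74898092-74898121, plus strand: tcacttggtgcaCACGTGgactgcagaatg
Ltv1, from base 29 of the transcript, chr10:13193092-13193121, minus strand: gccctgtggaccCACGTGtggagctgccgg
Utp20, from base 38 of the transcript, chr10:88826765-88826789, minus strand: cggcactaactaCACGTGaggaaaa

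Nucleolar genes with and without the motif overlapped widely in their changes, and the difference between them was not tested. The 8 with CACGTG had a median log2 change of -0.67 in CD8 T cells, beside -1.09 for the 31 with a promoter and no CACGTG, and the medians in ILC2s were -1.50 and -1.92. The ranges in CD8 T cells were -1.23 to -0.11 with the motif and -1.87 to -0.07 without it, and those in ILC2s -3.20 to -0.76 and -3.61 to -0.23. These are descriptions of a window and name no binding site. Nop2, an RNA methyltransferase gene that changed by -0.92 (SE 0.0814) in CD8 T cells and by -1.79 (SE 0.128) in ILC2s on the log2 scale, has CACGTG before its start, and Nhp2, with the largest fall, has no CACGTG in its window. Their 250 bases before the start, with any CACGTG in capitals, read as follows.
Nop2, chr6:125131633-125131882, plus strand: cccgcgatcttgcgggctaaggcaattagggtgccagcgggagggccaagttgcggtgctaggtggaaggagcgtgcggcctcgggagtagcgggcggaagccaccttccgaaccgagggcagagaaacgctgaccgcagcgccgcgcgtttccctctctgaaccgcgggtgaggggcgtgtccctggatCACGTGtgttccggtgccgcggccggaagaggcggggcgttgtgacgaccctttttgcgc
Nhp2, chr11:51619523-51619772, plus strand: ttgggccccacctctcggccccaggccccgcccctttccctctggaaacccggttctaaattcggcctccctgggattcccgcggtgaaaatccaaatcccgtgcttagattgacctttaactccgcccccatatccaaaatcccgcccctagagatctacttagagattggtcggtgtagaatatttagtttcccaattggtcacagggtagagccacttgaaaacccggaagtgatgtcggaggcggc

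Other genes of the same pathway, listed by name, were read beside the members. The largest rises and falls named below are among listed genes whose mean log2 CPM was 4 or more. Over all genes tested, 30.7% fell and 30.2% rose in CD8 T cells, and 34.4% fell and 31.8% rose in ILC2s. Of 38 other small subunit assembly genes, 26 fell and 1 rose in CD8 T cells and 27 fell and 2 rose in ILC2s, with median log2 changes of -0.48 and -0.72. Pno1, a late small subunit factor, fell most in both. It had 37.4 and 36.3 CPM in co-cultured CD8 T cells and 119.7 and 102.0 CPM in those alone (log2 change -1.67, SE 0.0864), and 8.46 and 9.28 CPM in co-cultured ILC2s and 76.1 and 76.7 CPM in those alone (-2.89, SE 0.133). Riok1, a kinase gene of late small subunit maturation, rose in ILC2s (0.61, SE 0.119, and -0.93 when scaled to ILC2 markers). Of 37 other large subunit assembly genes, 30 fell and 4 rose in CD8 T cells and 25 fell and 7 rose in ILC2s (medians -0.62 and -0.72). Rrp15 fell most in CD8 T cells (-1.54, SE 0.0996). Ftsj3, an RNA methyltransferase gene, fell most in ILC2s (-3.68, SE 0.177). Nvl rose in CD8 T cells (0.52, SE 0.0915) and in ILC2s (1.02, SE 0.150, and -0.53 when scaled to ILC2 markers). Nop53 rose in ILC2s, with 820.2 and 858.7 CPM co-cultured and 273.4 and 238.5 CPM alone (1.93, SE 0.119, and 0.39 when scaled to ILC2 markers). It also rose in CD8 T cells (0.41, SE 0.067). The medians of both lists were nearer to 0 than those of the 44 nucleolar members.

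Genes that are known targets of MYC outside the nucleolus were lower too. Of 30 listed, 29 fell and none rose in CD8 T cells (median log2 change -1.14), where 30.7% of all genes fell. In ILC2s 26 fell and 1 rose (median -1.41), where 34.4% of all genes fell. Slc7a5, the gene of a transporter of large neutral amino acids, fell most in CD8 T cells, with 42.9 and 47.7 CPM co-cultured and 227.5 and 202.7 CPM alone (-2.33, SE 0.0853). Among those with a mean log2 CPM of 4 or more, Srm, the spermidine synthase gene, fell most in ILC2s. It had 12.7 and 15.9 CPM co-cultured and 158.8 and 161.9 CPM alone (-3.28, SE 0.139). The lowest log2 change of the whole list in ILC2s was -5.06. Ldha, the lactate dehydrogenase gene, rose in ILC2s (0.49, SE 0.105, and -1.06 when scaled to ILC2 markers). In neither cell type did the co-cultured libraries of Slc7a5 or Srm reach those alone.

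Genes of the wider MYC network rose more often than they fell. Of 10 further network genes, 5 rose and 1 fell among the 9 tested in CD8 T cells, and 8 rose and 1 fell among the 10 tested in ILC2s (5 fell when scaled to ILC2 markers, with all genes at -1.55). Over all genes tested, 30.2% rose and 30.7% fell in CD8 T cells, and 31.8% rose and 34.4% fell in ILC2s. Mlxip, a glucose-responsive relative that pairs with MLX, rose in CD8 T cells, with 131.2 and 139.9 CPM co-cultured and 64.2 and 70.8 CPM alone (log2 change 0.93, SE 0.0802), where Mlx fell (-0.32, SE 0.0763). In ILC2s Mlxip rose by 0.69 and Mlx by 0.30 (-0.85 and -1.24 when scaled to ILC2 markers). Mycn, the N-MYC gene and a paralog of Myc, rose in ILC2s while Myc fell there. It had 45.1 and 50.9 CPM in co-cultured ILC2s and 6.17 and 5.49 CPM in those alone (3.25, SE 0.145, adjusted p = 5.5e-09). In CD8 T cells Mycn had 2.78 and 2.71 CPM co-cultured and 3.19 and 3.40 CPM alone and did not pass (-0.34, SE 0.186, adjusted p = 0.13). Co-cultured ILC2s were thus the group with the highest Mycn level and the lowest Myc level.

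The list of other RNA polymerase I genes showed no one direction. Of 8 found in the tables from 11 listed, 2 rose and 3 fell in CD8 T cells, where 30.2% of all genes rose and 30.7% fell. In ILC2s 3 rose and 2 fell, where 31.8% of all genes rose and 34.4% fell. With 8 genes, these counts do not set the list apart from all genes. Polr1e, a subunit gene, fell in CD8 T cells (log2 change -0.85, SE 0.0848) and in ILC2s (-1.94, SE 0.144). Tcof1, the gene of the nucleolar protein treacle, fell in ILC2s (-0.85, SE 0.144). Taf1c, of the promoter factor SL1, rose in CD8 T cells (0.96, SE 0.107) and did not pass in ILC2s (-0.05, SE 0.148). Taf1d, of the same factor, fell in CD8 T cells (-0.68, SE 0.0836) and rose in ILC2s (1.65, SE 0.142, and 0.11 when scaled to ILC2 markers). The symbols Polr1f, Polr1g and Polr1h were not found in either table and were not analysed here.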

How the data were processed

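Read counts per gene were deposited by the authors in one table per cell type. Per the submitters' processing notes, Trimmomatic 0.38, HISAT2 2.1.0, SAMtools 1.9 and StringTie 2.1.3b were used with mm10; settings, annotation and strand are not given in the sources used. No count in either deposited table is 0, so a gene with no read in some library of a cell type is not in that table. CPM was computed here from library totals. Each cell type was tested with edgeR 4.0.16 in R 4.3.3 (TMM factors, filterByExpr, quasi-likelihood test, Benjamini-Hochberg adjustment over all genes tested, threshold 0.05). The interaction used all 8 libraries and the genes of both tables. Alternatives were RLE factors, library totals only, DESeq2 1.42.0, limma 3.58.1 (voom), other count filters, a replicate block, leaving out each library, 1 fit of all libraries and scaling to ILC2 markers. The procedure was tested on simulated data. Planted 1.5-fold changes were called in 63.8% of cases in CD8 T cells, 36.8% in ILC2s and 28.1% in the interaction. For 2-fold changes these shares were 90.1%, 78.3% and 67.6%. A gene that did not pass may therefore still have changed by such amounts. Overlaps were read from GENCODE M21, and similar transcripts were found with BLAST 2.17.0.

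The members and gene lists were chosen with earlier results of these data known. Named genes were all MYC network members, and in each other role and cell type those with the largest rise and fall past the threshold. In each pathway list they were those with the largest rise and fall at a mean log2 CPM of at least 4. Other members were added for their roles. No correlation with Myc was computed over libraries, since these fall into 4 separate groups.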

Additional observations from a re-analysis of the deposited data

Results flagged for a closer look

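For 37 of the 48 members the change after co-culture differed between the cell types by edgeR's test of the difference itself (53.6% of all genes tested differed). Values are the CD8 change minus the ILC2 change on the log2 scale, where the median of all genes was 0.12. Markers of other cells move with the ILC2 contrast, and their part was not tested. Among MYC network genes it was 0.89 for Max, 0.94 for Mxd1 and 2.11 for Myc. Among RNA polymerase I genes it was 0.86 for Polr1a, 1.86 for Polr1b, 0.81 for Rrn3 and 0.55 for Ubtf. Among nucleolar scaffold genes it was 1.52 for Ddx21, 1.96 for Nolc1 and -0.92 for Npm1. Among box C/D snoRNP genes it was 0.79 for Fbl, 0.90 for Nop56 and 1.27 for Rrp9. Among box H/ACA snoRNP genes it was 1.17 for Dkc1, 1.08 for Gar1 and 1.896 for Nhp2. Among small subunit assembly genes it was 2.26 for Bysl, 2.43 for Heatr1, 0.93 for Ltv1, 0.84 for Noc4l, 1.88 for Rrp12, 1.28 for Tsr1, 2.12 for Utp20 and 1.09 for Utp4. Among large subunit assembly genes it was 0.88 for Bop1, 0.91 for Ebna1bp2, 0.82 for Gnl3, 1.77 for Mrto4, 1.41 for Noc3l, 1.05 for Nop16, 1.03 for Nop2, 0.64 for Pes1, 1.29 for Ppan, 1.16 for Rrp1b, 1.94 for Rrs1, 1.17 for Wdr12 and 0.75 for Wdr74.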

How the results depend on the processing

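With 2 libraries per group, p-values rest on a spread estimate shared across genes. Leaving out each library gave 42 to 42 members down and 2 to 4 up in CD8 T cells, 40 to 41 down and 2 to 2 up in ILC2s, and 36 to 40 members called in the interaction. Without CD8 co-cultured replicate 1, Max no longer passed in the interaction (0.51, adjusted p = 0.081). Same-numbered libraries showed little shared deviation over genes (r = -0.03 in CD8 T cells and 0.04 in ILC2s). With 2 pairs each, this cannot decide whether they share a culture, animal or batch. With the replicate block 42 members fell and 4 rose in CD8 T cells (Myc among them, 0.20, adjusted p = 0.049). In ILC2s 42 fell and 2 rose with that block, and 38 were called in the interaction. Scaling to ILC2 markers left 0 members called up in ILC2s and 47 down, but it moves every gene alike and called 479 of all 16739 genes up and 13421 down. With library totals only, 38.3% of all ILC2 calls were rises, against 48.0% with TMM factors, and 43 members fell. The E-box share was 7.14% with only the 250 bases before the start. Values that changed sign were few. In CD8 T cells Rrp1b was 0.0056 with library totals only. In ILC2s Npm1 was -0.15 with library totals only, -0.0903 in the fit of all 8 libraries, -1.48 when scaled to ILC2 markers, and ran from -0.0316 (without ILC2 co-cultured replicate 1) to 0.13 over the fits that leave out 1 library. Npm3 ran from -1.16 to 0.21 over those fits, the highest being without ILC2 alone replicate 2. Mxd1 was -0.21 and Mxd4 -0.44 when scaled to ILC2 markers. In the interaction Nop10 was -0.0239 with RLE factors and -0.0238 with DESeq2. Mxd4 was 0.0707 with library totals only and ran from -0.24 to 0.0566 over the fits that leave out 1 library. When scaled to ILC2 markers, which put the interaction's median over all genes at 1.46, it was 1.24 for Mxd4, 1.01 for Ncl, 1.17 for Nob1, 1.11 for Nop14, 0.42 for Npm1, 0.78 for Npm3 and 1.15 for Polr1c. The cause of these changes was not tested.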
